A study of Homo sapiens with 8 samples.

Results

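Raised FDX1 expression was compared with control in SUDHL-4 cells that had received only the solvent DMSO, with the levels taken from 4 of the 8 RNA-seq libraries of the series and the spread between replicates estimated over all 8. SUDHL-4 is a long-used human lymphoma line, grown from a diffuse large B-cell tumour that resembles germinal-centre B cells. The 2 control libraries came from cells labelled wild type (WT), and the other 2 from cells labelled as overexpressing FDX1 (FDX1-OE). All 4 were taken after 48 h in DMSO. The remaining 4 libraries came from the same kinds of cells given 5 nM elesclomol (ES), a copper-carrying drug, for 48 h, and the series title asks how FDX1 overexpression alters the response to it. The labels do not say what vector the control cells carried, whether the FDX1-OE cells were 1 clone, or whether replicates were separate cultures, so p-values measure only the spread between these libraries. Members were the genes with a level of 1 FPKM (fragments scaled to gene length and library total) or more in at least 2 of the 4 DMSO libraries, which kept 9360 of the 15597 genes in the files.

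The product of FDX1, ferredoxin 1, is a small iron-sulfur protein of the mitochondrial matrix that takes electrons from ferredoxin reductase and hands them to other enzymes, and it is needed for the attachment of lipoic acid to enzymes of the TCA cycle. Type I and type III interferons are secreted proteins made when a cell's sensors meet foreign or misplaced nucleic acid. They act through JAK kinases and STAT proteins, which with IRF9 bind a DNA element called the interferon-stimulated response element (ISRE) and switch on antiviral genes.

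Depth was even, with 33435438 to 35883528 reads per DMSO library. A gene was called at a Benjamini-Hochberg adjusted p below 0.05 in limma, a linear model fitted to log2(FPKM + 1) of all tested genes, and log2 changes below are FDX1-OE against control on that scale. FDX1-OE cells had 46 genes called higher (0.491% of the genes tested) and 9 called lower (0.0962%), so 55 in either direction (0.588%). Most of the transcriptome barely moved: 96.81% of the genes had a log2 change smaller than 0.25 in size, and the median change was 0.00. Of the 46 genes called higher, 7 had reached the level for testing only through the FDX1-OE libraries. For these 7 (MX2, XAF1, PARP9, DTX3L, HELZ2, ZC3HAV1 and IFNL3) a difference follows in part from the filter. Fits below that left out a library kept the same tested genes, so this also bears on IFNL3 among the calls they kept. On the scale of FPKM + 1, differences of at least 2-fold were found for 18 genes called higher and 1 called lower. This scale understates changes of low genes, so some genes outside this count differed by more than 2-fold in FPKM. The libraries of each of the 55 genes did not overlap between groups, while over all tested genes both FDX1-OE libraries lay above both controls for 17.9% and below them for 18.1%. The number of calls depended on which single library was left out. Without control replicate 1 there were 16 higher and 1 lower, without control replicate 2 there were 18 and 3, without FDX1-OE replicate 2 there were 28 and 3, and without FDX1-OE replicate 1 there were 57 and 5. The calls that held in all 4 of these fits numbered 14, namely FDX1, IFIT1, IFIT2, IFIT3, IFI6, IFI44, IFITM1, RSAD2, CXCL10, CCL5, IFNL3, VAT1L, PALLD and, among the genes that fell, LAPTM5.

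**Figure D1:**
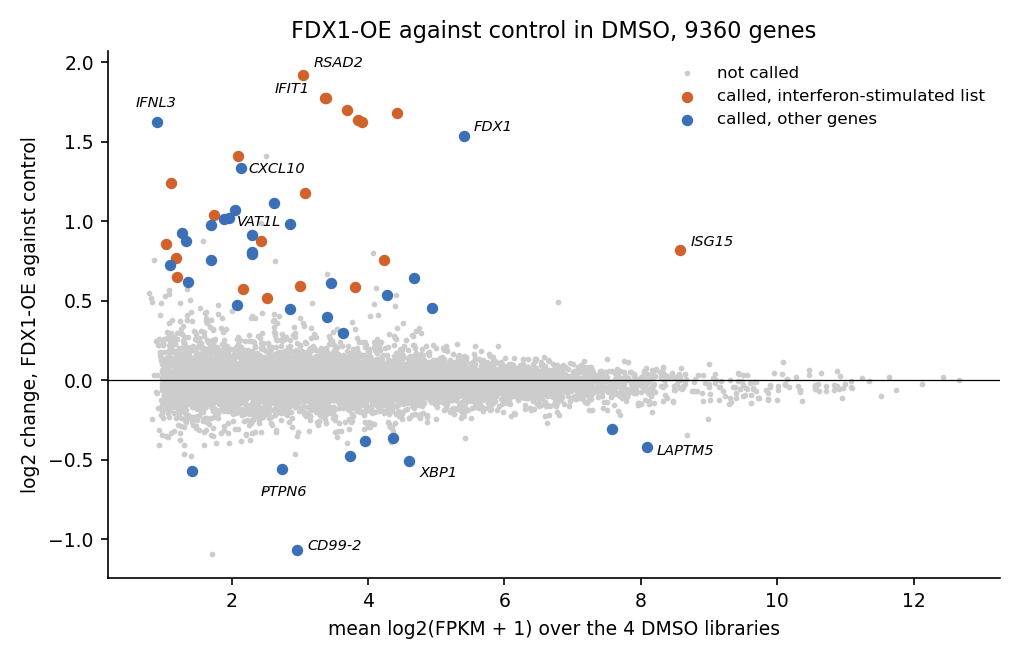
Log2 change of each of the 9360 tested genes (y axis, FDX1-OE against control in DMSO) against its mean log2(FPKM + 1) over the 4 DMSO libraries (x axis). Orange points are called genes of the interferon-stimulated list, blue points the other called genes and grey points genes not called. The called interferon-stimulated genes all lie above 0, and FDX1 stands at 1.54.

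FDX1 itself was the check of the labels. Its level was 25.6 and 22.2 FPKM in the control libraries and 72.4 and 69.9 FPKM in the FDX1-OE libraries. Both FDX1-OE libraries stood far above both controls, and the replicates lay close together. The log2 change was 1.54 ± 0.07 (SE, n = 2 per group, limma adjusted p = 9.43e-07), and by its mean level FDX1 moved from rank 2850 to rank 951 among the genes in the files. The files give 1 value per gene, so transcripts of the introduced copy and of the cells' own gene cannot be told apart.

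The partners of FDX1 did not pass the test. Of 18 tested genes of the lipoylation pathway and its substrates, FDX1 was the 1 called higher and none was called lower. LIAS, the lipoyl synthase, was at 4.87 and 4.81 FPKM in control and 3.91 and 4.79 FPKM in FDX1-OE cells, with a log2 change of -0.13 (95% confidence interval -0.34 to 0.07). DLAT, a lipoylated subunit of pyruvate dehydrogenase, had a log2 change of 0.02 (95% confidence interval -0.12 to 0.15). FDXR, the ferredoxin reductase that supplies FDX1 with electrons, had a log2 change of -0.17 (95% confidence interval -0.32 to -0.02, adjusted p = 0.611). None of these intervals reaches the size of the change of FDX1.

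The interferon-stimulated genes made up the largest group of called genes. Of 26 tested genes of this list, 21 were called higher and none lower, with a median log2 change of 0.84 over the 26 against 0.00 over all tested genes. Of the 26, 4 (MX2, XAF1, PARP9 and DTX3L) reached the level for testing only through the FDX1-OE libraries, where they are high, and all 4 are among the called. Of the other 22, 17 were called, and with a filter on the mean of the 4 libraries (5 FPKM or more) 12 of 15 were. That mean includes the FDX1-OE libraries, so the filter also favours genes that are high there. RSAD2, IFIT1 and IFITM1 passed it with both controls under 5 FPKM. Fold changes of the 21 ran from 1.43 to 3.79 on the scale of FPKM + 1. Without FDX1-OE replicate 2 the number called was 13, without control replicate 1 it was 9, and without control replicate 2 it was 7. Without FDX1-OE replicate 1 it was 23. The list was drawn up with earlier results of these data known, so its direction is not independent evidence. In bulk RNA, a rise in every cell and a larger rise in some of the cells cannot be told apart.

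RSAD2, which encodes viperin, an enzyme that makes a chain-terminating nucleotide, had the largest change on the log2(FPKM + 1) scale. It stood at 3.55 and 2.98 FPKM in control and at 11.3 and 20.1 FPKM in FDX1-OE libraries, a log2 change of 1.92 ± 0.20 (SE, limma adjusted p = 0.00094). The FDX1-OE libraries were well above the controls and differed between themselves by more than the controls did. IFIT1, which binds viral RNA lacking the host's cap methylation, rose from 4.61 and 4.68 FPKM to 15.7 and 21.3 FPKM, a log2 change of 1.77 ± 0.13 (adjusted p = 0.000128). Its neighbours in the same family moved with it. IFIT2 went from 7.54 and 6.88 FPKM to 21.1 and 28.5 FPKM, and IFIT3, a partner that stabilises IFIT1, from 11.0 and 11.0 FPKM to 31.6 and 44.1 FPKM. Their log2 changes were 1.64 and 1.68. IFITM1, a membrane protein that blocks viral entry, rose from 4.57 and 4.59 FPKM to 13.3 and 24.5 FPKM, with a log2 change of 1.77. IFI6 rose from 6.73 and 5.71 FPKM to 18.0 and 27.6 FPKM, with a log2 change of 1.70, and IFI27 from 8.45 and 6.76 FPKM to 19.7 and 32.7 FPKM, with a log2 change of 1.62. IFI27 lost its call without control replicate 1 and without control replicate 2, while the others named in this paragraph kept theirs in all 4 fits that left out 1 library.

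The oligoadenylate synthetase family, whose products activate RNase L, rose more moderately. OASL, a relative without that enzymatic activity, had a log2 change of 1.41, OAS2 of 1.18 and OAS1 of 0.59. OASL and OAS2 lost their calls without control replicate 2, and OAS1 kept its call in 1 of the 4 fits that left out a library. ISG15, a ubiquitin-like modifier, was the most abundant interferon-stimulated gene. It was at 289 and 283 FPKM in control and 456 and 559 FPKM in FDX1-OE libraries, a log2 change of 0.82 ± 0.11 (limma adjusted p = 0.00712), and was called in 1 of the 4 fits that left out a library, the one without FDX1-OE replicate 1. MX2, a dynamin-like GTPase that blocks nuclear entry of viral genomes, rose from 0.421 and 0.386 FPKM to 1.56 and 3.29 FPKM. EIF2AK2, the kinase PKR that halts translation on sensing double-stranded RNA, rose by a log2 change of 0.51, the smallest of the 21. MX2 lost its call without either control replicate, and EIF2AK2 kept its call only without FDX1-OE replicate 1. The remaining called members of the list were IFI44, IFI44L, SAMD9, SAMD9L, XAF1, PARP9, DTX3L and LGALS3BP, with log2 changes between 0.57 and 1.04. Of these, IFI44 kept its call in all 4 fits that left out a library, SAMD9L and XAF1 lost theirs without either control replicate, and the others kept theirs only without FDX1-OE replicate 1.

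Some classical members of the same programme had few reads in these cells or were not called. Of the 37 listed genes, 11 were below the level for testing, among them MX1 with 11 and 18 reads in the control libraries and 7 and 11 reads in the FDX1-OE libraries. HERC5, the ligase that attaches ISG15 to other proteins, had 1 read and 0 reads in control and 0 reads in both FDX1-OE libraries. USP18, the protease that removes ISG15, had at most 2 reads in any of the 4. The 5 tested members that were not called included BST2, at 160 to 170 FPKM in all 4 libraries with a log2 change of 0.04, and IFI35, with a log2 change of 0.75 (adjusted p = 0.147).

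FDX1-OE replicate 2 carried more of this programme than replicate 1. Its level was higher in 21 of the 21 called interferon-stimulated genes, by a median of 0.47 on the log2 scale. Between the controls the corresponding figures were 9 of 21 genes and -0.04. A principal component analysis of the 4 DMSO libraries placed 51.16% of the variance on an axis along which the controls lay at -7.50 and -4.65 and the FDX1-OE libraries at 4.23 and 7.92. The source of the difference between the FDX1-OE replicates was not tested.

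**Figure D2:**
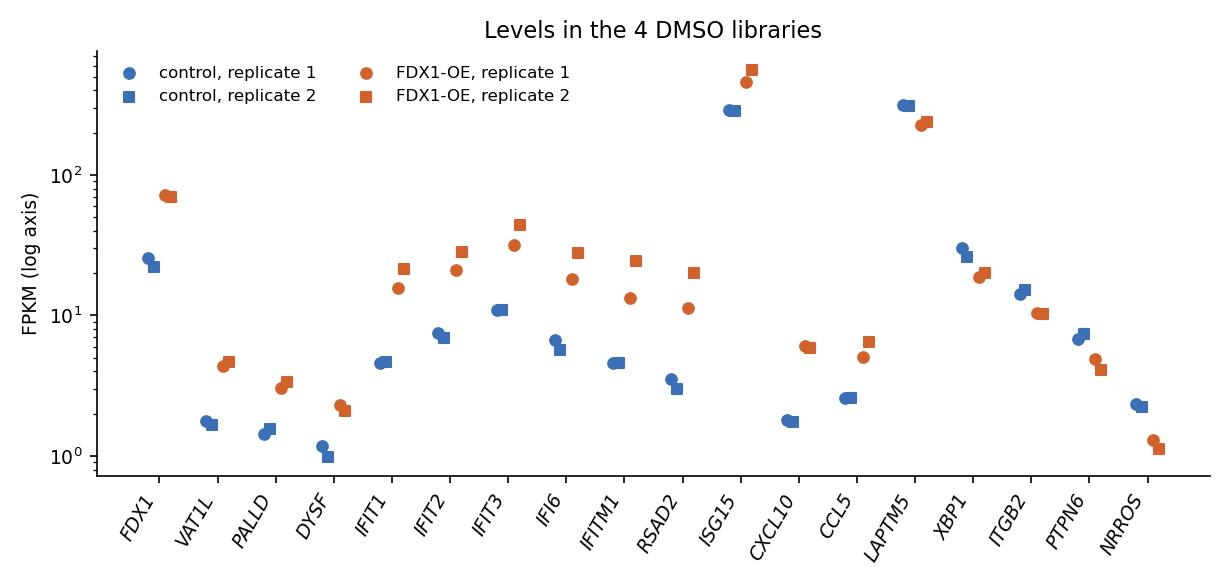
FPKM on a log axis of 18 called genes in each of the 4 DMSO libraries (blue, control; orange, FDX1-OE; circles and squares, replicates 1 and 2). FDX1-OE replicate 2 lies above replicate 1 for the interferon-stimulated genes, for example at 20.1 against 11.3 FPKM for RSAD2, while FDX1 is at 69.9 and 72.4 FPKM.

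The genes were then compared by promoter sequence, which no measured value enters. The window from 250 bases before to 50 bases after each annotated start in RefSeq (GRCh38.p14) was searched on both strands for the ISRE core GAAANNGAAA. It was present in a window of 317 of the 7900 tested genes that could be matched by symbol (4.01%), and in 3.57% of all 35116 windows. Among called genes it was found in 19 of the 38 matched genes that were higher (50%). It was found in 0 of the 6 matched genes that were lower. Within the interferon-stimulated list it was found in 14 of 17 matched called genes (82.4%), and among the other called higher genes in 5 of 21 (23.8%). Of the 19, DTX3L, PARP9 and IFNL3 reached the level for testing only through the FDX1-OE libraries. DTX3L and PARP9 share the same core, which is counted for each of them. A second element, the gamma-activated site TTCNNNGAA bound by STAT dimers, was found in 8 of the 38 (21.1%) against 8.09% of tested genes. Other motifs searched were less common among the 38 than among tested genes, apart from TGATGNAAT. That motif was found in 1 of the 38, BCAR3 (2.63% against 0.658%). The less common motifs were GGGNNNNNCC (65.8% against 79.4%), CCACG (39.5% against 58.4%) and CACGTG (5.26% against 13.3%). A match is a run of letters and not a measured binding site, and the list had been defined by a response to interferon.

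The upstream sequences of 4 of these genes are shown because they hold the ISRE core in different arrangements. Each is the 160 bases before the annotated start, 5′ to 3′ on the gene's strand, with the core in capitals. IFIT1 carries 2 cores on the opposite strand, starting 116 and 103 bases before the start (chr10:89392463-89392622, plus strand). ISG15 carries 2 overlapping cores (chr1:1013337-1013496, plus strand), and IFI6 carries 3 in a near repeat (chr1:27672193-27672352, minus strand). RSAD2 carries 1, at 145 bases before the second of its annotated starts (chr2:6877617-6877776, plus strand).
IFIT1: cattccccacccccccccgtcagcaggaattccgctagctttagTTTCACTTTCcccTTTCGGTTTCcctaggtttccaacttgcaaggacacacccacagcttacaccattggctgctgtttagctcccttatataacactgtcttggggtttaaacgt
ISG15: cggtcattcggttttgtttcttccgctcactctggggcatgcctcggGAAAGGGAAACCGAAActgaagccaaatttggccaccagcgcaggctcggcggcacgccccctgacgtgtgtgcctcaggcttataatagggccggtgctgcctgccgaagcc
IFI6: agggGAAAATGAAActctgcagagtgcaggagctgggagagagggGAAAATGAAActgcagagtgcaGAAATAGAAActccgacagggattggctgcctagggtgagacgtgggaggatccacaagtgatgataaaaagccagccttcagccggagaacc
RSAD2: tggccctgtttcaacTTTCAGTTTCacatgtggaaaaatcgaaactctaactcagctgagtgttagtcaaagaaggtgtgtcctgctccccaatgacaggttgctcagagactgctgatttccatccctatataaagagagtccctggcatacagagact

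Shorter windows of 30 bases around the first core are given for 7 further genes that were called higher, of which CXCL10, IFNL3 and PLSCR1 stand outside the interferon-stimulated list. Among these 7, the first core begins 6 bases before the start in EIF2AK2 and 221 bases before it in CXCL10, and IFITM1 has a second core 6 bases before its start. A core written TTTC first lies on the strand opposite to the gene. The positions are chr11:313990-314019 (IFITM1, plus strand), chr2:37156967-37156996 (EIF2AK2, minus), chr7:93118096-93118125 (SAMD9, minus), chr1:78649761-78649790 (IFI44, plus), chr4:76023699-76023728 (CXCL10, minus), chr19:39245407-39245436 (IFNL3, minus) and chr3:146544667-146544696 (PLSCR1, minus).
IFITM1: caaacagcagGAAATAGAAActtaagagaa
EIF2AK2: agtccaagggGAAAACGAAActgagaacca
SAMD9: tctgagaaatGAAACTGAAAccaaacctat
IFI44: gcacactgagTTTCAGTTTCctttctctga
CXCL10: tcatgttttgGAAAGTGAAAcctaattcac
IFNL3: tctccatcagTTTCTCTTTCcctccagctg
PLSCR1: cgggaaccggGAAAAGGAAAccgtgttgtg

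Interferon transcripts themselves were rare, and more of them were counted in FDX1-OE cells. IFNL3, a type III interferon, had 3 reads and 0 reads in the control libraries and 53 reads in each FDX1-OE library, which is 0.127, 0, 2.21 and 2.32 FPKM. The ratio of the summed reads per library total was 36.3 (95% exact interval 12.1 to 179, for counting error only), and the log2 change on the FPKM + 1 scale was 1.62. IFNL3 reached the level for testing only through the FDX1-OE libraries, so its call is given as a description, and it was lost when no filter on low values was used. IFNL3 is nearly identical in sequence to IFNL2, so the division of reads between them is uncertain. IFNL2 had 10 and 2 reads in control and 10 and 41 reads in FDX1-OE libraries, which overlap. IFNB1, the type I interferon beta, fell under the level for testing with 1 and 4 reads in control and 26 and 18 reads in FDX1-OE libraries. Its ratio was 9.05 (95% exact interval 3.6 to 29.2). IFNL1 had 5 and 2 reads against 23 and 14 reads, a ratio of 5.44 (95% exact interval 2.39 to 14.5), and IFNA2 had 0 reads in both controls against 4 and 5 reads. The FDX1-OE libraries lay above the controls for IFNB1, IFNL1, IFNL3 and IFNA2 but not for IFNL2, at counts that leave the sizes loosely fixed. Among all tested genes, 17.9% had both FDX1-OE libraries above both controls. Other interferon genes are not reported here.

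Of 12 tested genes of nucleic acid sensing, 2 were called higher and none lower, with a median log2 change of 0.13. DDX58, which encodes RIG-I, rose from 1.25 and 1.37 FPKM to 2.83 and 4.38 FPKM, a log2 change of 0.97 ± 0.14 (limma adjusted p = 0.009). DHX58, the related regulator LGP2, rose from 2.44 and 3.04 FPKM to 5.01 and 5.96 FPKM, a log2 change of 0.80. IFIH1, which encodes MDA5, had about the same log2 change of 0.80 and missed the threshold (adjusted p = 0.0536), its 2 FDX1-OE libraries lying at 4.22 and 6.53 FPKM. MAVS, the adaptor of RIG-I and MDA5, had a log2 change of 0.02 and was not called. Neither were CGAS, a sensor of DNA, at -0.24 and TLR9, an endosomal receptor, at -0.21. DDX58 lost its call without either control replicate, and DHX58 kept its call only without FDX1-OE replicate 1.

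Most of the pathway that carries the interferon signal did not pass the test. STAT2 was at 13.1 FPKM in both control libraries and at 16.1 and 19.4 FPKM in FDX1-OE libraries, a log2 change of 0.41 (limma adjusted p = 0.172). IRF7, the factor that amplifies interferon transcription, was at 7.39 and 7.33 FPKM against 9.66 and 15.6 FPKM, a log2 change of 0.67 (adjusted p = 0.14). For both genes the groups did not overlap, and FDX1-OE replicate 2 was the higher one. IRF9, IRF3 and IRF1 had log2 changes of 0.02, -0.04 and 0.02, and the receptor chains IFNAR1 and IFNAR2 of -0.05 and -0.12. The kinases JAK1 and TYK2 each stood at -0.01. Over the 20 tested genes of signalling and regulation, 2 were called higher, IFNL3 among them, none was called lower, and the median was 0.01.

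Other called genes known to respond to interferon were outside the list. PLSCR1, a phospholipid scramblase, rose by a log2 change of 1.12, RNF213, a giant ubiquitin ligase, by 1.07, LGALS9, which encodes galectin-9, by 1.01, HELZ2, a nuclear helicase, by 0.93 and ZC3HAV1, the zinc-finger antiviral protein, by 0.72. TRIM22 and TRIM21, 2 ubiquitin ligases, rose by 0.45 and 0.30 with adjusted p of 0.0499 and 0.0497 in limma, just inside the threshold. TRIM21 was called in none of the 4 fits that left out a library. PLSCR1, RNF213 and ZC3HAV1 lost their calls without control replicate 1 only, LGALS9 without either control replicate, and HELZ2 and TRIM22 kept theirs only without FDX1-OE replicate 1.

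Chemokines that draw T cells rose. CXCL10, a ligand of the receptor CXCR3, was at 1.79 and 1.73 FPKM in control and 6.04 and 5.85 FPKM in FDX1-OE libraries, a log2 change of 1.33 ± 0.11 (limma adjusted p = 0.000178). CCL5, which also attracts T cells, went from 2.57 and 2.57 FPKM to 5.07 and 6.42 FPKM, a log2 change of 0.91. CXCL11, a second CXCR3 ligand, went from 0.642 and 1.09 FPKM to 2.78 and 2.06 FPKM, a log2 change of 0.88. CXCL11 lost its call without control replicate 1, while CXCL10 and CCL5 kept theirs in all 4 fits. Replicate 1 of FDX1-OE was the higher one for CXCL11, the reverse of the order seen for the interferon-stimulated list. For CXCL10 the FDX1-OE replicates were close, and for CCL5 replicate 2 was the higher one. CCL3L3 rose by a log2 change of 0.98, but it is a near copy of CCL3, which had a log2 change of 0.04, and the split of reads between the copies is uncertain. It kept its call only without FDX1-OE replicate 1. In all, 3 of 6 tested genes of the chemokine list were called higher, with a median of 0.55.

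A smaller group of genes that rose has no tie to interferon in the lists used. VAT1L, a relative of a synaptic vesicle protein, was at 1.79 and 1.66 FPKM in control and 4.39 and 4.65 FPKM in FDX1-OE libraries, a log2 change of 1.02 ± 0.08 (limma adjusted p = 0.000128). PALLD, which encodes the actin-associated protein palladin, went from 1.43 and 1.55 FPKM to 3.07 and 3.34 FPKM, a log2 change of 0.75 (95% confidence interval 0.58 to 0.93). Both genes had tight replicates and kept their calls without any 1 library. DYSF, the membrane-repair protein dysferlin, had a log2 change of 0.62, LRRN3, a leucine-rich repeat membrane protein, of 0.61, CAMP, the antimicrobial peptide cathelicidin, of 0.53, GPR15, a homing receptor, of 0.47, PDZRN3, a ubiquitin ligase, of 0.45 and BCAR3, an adaptor of integrin signalling, of 0.40. DYSF lost its call without control replicate 2, LRRN3 kept its call only without FDX1-OE replicate 1, and CAMP, GPR15, PDZRN3 and BCAR3 were called in none of the 4 fits that left out a library.

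Of the 9 genes that were lower, 8 had log2 changes between -0.57 and -0.31, and the other was the row CD99-2 at -1.07. LAPTM5, a lysosomal membrane protein that lowers antigen receptors at the surface, was among the most abundant called genes. It was at 316 and 310 FPKM in control and at 229 and 239 FPKM in FDX1-OE libraries, a log2 change of -0.42 ± 0.05 (limma adjusted p = 0.0023), and it was the 1 lower gene that kept its call in all 4 fits. XBP1, the transcription factor of the unfolded protein response and of plasma cells, was at 29.99 and 26.2 FPKM in control and 18.7 and 20.2 FPKM in FDX1-OE libraries, a log2 change of -0.51 ± 0.08 (adjusted p = 0.012). The groups did not overlap, and the call was lost without control replicate 1 and without FDX1-OE replicate 1. PTPN6, the phosphatase SHP-1 that dampens B-cell receptor signals, fell from 6.75 and 7.35 FPKM to 4.88 and 4.09 FPKM, a log2 change of -0.56. NRROS, a membrane protein that tethers latent TGF-beta, had a log2 change of -0.57. PTPN6 and NRROS kept their calls only without FDX1-OE replicate 1.

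ITGB2, the beta chain of the leukocyte integrins, fell from 14.3 and 15.2 FPKM to 10.4 and 10.2 FPKM, a log2 change of -0.48, while its partner ITGAL had a log2 change of 0.03. VPREB3, a pre-B-cell receptor component that SUDHL-4 cells made at 222 and 203 FPKM in control and 173 and 169 FPKM in FDX1-OE libraries, had a log2 change of -0.31. PLEKHA2, which encodes a lipid-binding adaptor, had a log2 change of -0.38, and HMCES, a protein that shields abasic sites in DNA, of -0.37. ITGB2, VPREB3 and PLEKHA2 were called in none of the 4 fits that left out a library, and HMCES only without FDX1-OE replicate 1. The largest fall belonged to a row named CD99-2, at 9.07 and 11.5 FPKM in control and 3.39 and 5.55 FPKM in FDX1-OE libraries (log2 change -1.07, limma adjusted p = 0.0387), which was called in 1 of the 4 fits, the one without FDX1-OE replicate 2. CD99 lies in the pseudoautosomal region and so has an identical copy on each sex chromosome, and the files hold no row named CD99. Some other rows with such a suffix varied widely between replicates. ASMTL-2 had 10 and 885 reads in the 2 control libraries and GTPBP6-2 had 46 and 1082 reads in the 2 FDX1-OE libraries. SLC25A6-2 was even, with 216 and 244 reads in control and 222 and 225 reads in FDX1-OE libraries. How far this bears on CD99-2 was not tested, so the CD99-2 value is uncertain.

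The fall of XBP1 was not joined by called changes in its programme. Of 25 tested genes of the ER unfolded protein response, XBP1 was the 1 called lower and none was higher. HSPA5, the ER chaperone BiP, was at 235 and 229 FPKM in control and 222 and 219 FPKM in FDX1-OE libraries, a log2 change of -0.08 (95% confidence interval -0.18 to 0.03). DNAJB9, a direct XBP1 target, had a log2 change of -0.02 and EDEM1, which sorts misfolded proteins for removal, of -0.10. The median over the 25 was -0.08, and 21 of them lay below 0, against 49.9% of all tested genes. In the plasma-cell list XBP1 was again the 1 called gene of 12, and PRDM1 and IRF4, the other regulators of that state, were below the level for testing.

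Cell identity was that of a B cell in every library. CD79A was at 651 to 698 FPKM, MS4A1 at 160 to 179 FPKM, PAX5 at 45.5 to 53.8 FPKM, BCL6 at 61.8 to 71.4 FPKM and MME at 28.0 to 30.8 FPKM over the 4 libraries. None of 29 tested germinal-centre genes was called, and their median log2 change was 0.01. Of 30 tested genes of B-cell receptor signalling, PTPN6 was the 1 called lower, and SYK, BTK and CD22 had log2 changes of 0.05, -0.07 and -0.08.

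Markers of other cell types were low, with a few exceptions. The 10 myeloid markers in the files summed to 4.30 and 4.06 FPKM in control and 8.23 and 7.17 FPKM in FDX1-OE libraries. Most of that came from FCER1G, a signalling chain of Fc receptors, which rose by a log2 change of 0.81 (limma adjusted p = 0.0494), was called in none of the 4 fits that left out a library, and without which the sums were 1.38 and 1.51 against 2.02 and 2.26 FPKM. CD68, which also reached 1 FPKM, had a log2 change of 0.41 and was not called (adjusted p = 0.0588 in limma). MPO was at 0 in all 4 libraries, and CD14, LYZ and CSF1R stayed at or below 0.151 FPKM. The 10 T and NK cell markers in the files summed to 27.0 and 25.8 FPKM (control) and 31.9 and 32.1 FPKM (FDX1-OE). CD5 and CD7 were at 0, and IL7R was the main contributor. CD3E and PRF1 also reached 1 FPKM, with log2 changes of 0.37 and -0.31, and neither was called. The 15 epithelial and stromal markers summed to 14.3 and 12.7 FPKM against 13.5 and 16.0 FPKM, nearly all from DCN, with 7 of them at 0. The part of other cells in the interferon result was not tested.

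Metabolic and stress programmes held no called gene apart from FDX1 and XBP1. None of 21 tested genes of iron-sulfur cluster assembly, 12 of copper handling, 16 of iron handling, 19 of the TCA cycle, 23 of glycolysis or 23 of cholesterol synthesis was called. The metallothionein MT2A, a metal-binding protein, was at 91.6 and 92.3 FPKM in control and 117 and 144 FPKM in FDX1-OE libraries and missed the threshold (log2 change 0.49, limma adjusted p = 0.0688). The nuclear genes of respiratory complex I showed a small common displacement, with 36 of 37 below 0, a median log2 change of -0.07 and none called. For complexes II to V 35 of 39 lay below 0, with a median of -0.06 and none called. Over all tested genes 49.9% lay below 0. Changes of this size are under the median 95% confidence half-width of a single gene, 0.16. That width does not measure the error of a list median, and the common displacement was not tested. The ATF4, heat shock, NRF2 and p53 lists had medians of 0.02, 0.00, 0.00 and 0.00 and no called gene.

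Growth and further immune lists were as quiet. No gene was called among 37 tested S-phase genes, 33 mitotic genes, 34 genes of ribosome biogenesis, 12 BCL2 family genes or 21 NF-kB subunits and targets. Antigen presentation by MHC class I, which interferon commonly raises, had no called gene of 17: TAP1, the peptide transporter, had a log2 change of 0.41 (limma adjusted p = 0.0964), PSMB9, an immunoproteasome subunit, of 0.13 and B2M of 0.10. MHC class II genes had a median of -0.04 and none called. Of the 38 lists with a tested gene, 10 held at least 1 called gene.

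**Figure D3:**
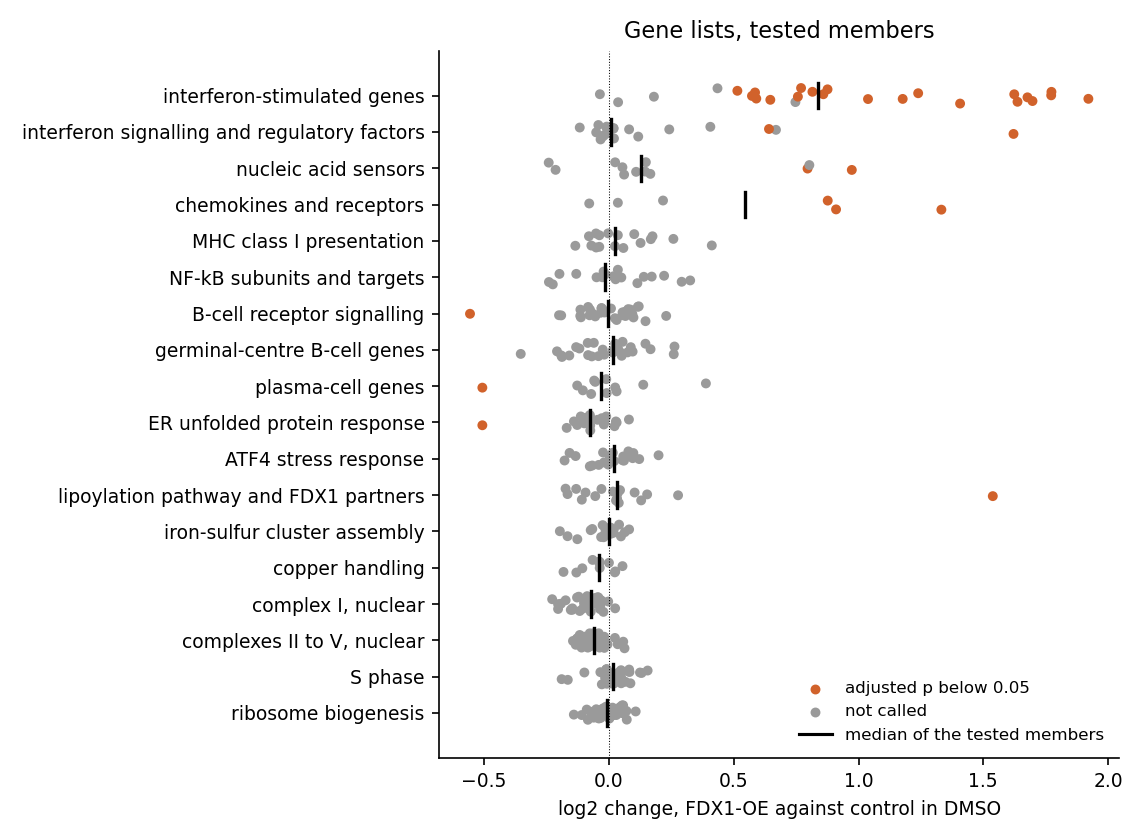
Log2 change in DMSO (x axis, FDX1-OE against control) of the tested members of 18 gene lists, with called genes in orange, other genes in grey and the list median as a black bar. The interferon-stimulated list is centred at 0.84, while the medians of the metabolic, stress and growth lists lie between -0.08 and 0.03.

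The same genotypes were also compared under ES, in libraries whose levels do not enter the DMSO log2 changes, although both comparisons share 1 estimate of the spread over all 8 libraries. The FDX1-OE difference had the same sign in ES for 55 of the 55 genes, and 50 were called in the same direction. These 50 are 90.91% of the genes called in DMSO and 2.637% of the 1896 genes called in ES, where 20.3% of the tested genes were called (12.2% higher and 8.1% lower). Those not called in ES included IFI44L, CD99-2, HMCES and VPREB3. The share of all tested genes with the same sign in both settings was not counted. Both settings used the same 2 kinds of cells, so any other difference between those cells would enter both comparisons. FDX1 was at 21.3 and 21.4 FPKM in control and 82.5 and 84.8 FPKM in FDX1-OE cells under ES, a log2 change of 1.92, against 1.54 in DMSO (interaction adjusted p = 0.0526).

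Levels in all 8 libraries show how the genes found in DMSO stood under the drug. IFIT1 was at 32.9 and 24.8 FPKM in control cells in ES, above the 15.7 and 21.3 FPKM of FDX1-OE cells in DMSO, and at 68.6 and 69.3 FPKM in FDX1-OE cells in ES. The FDX1-OE difference of IFIT1 was thus 1.77 in DMSO and 1.24 in ES on the log2 scale (interaction -0.53, limma adjusted p = 0.137). RSAD2 was at 21.5 and 16.3 FPKM in control and 67.6 and 63.4 FPKM in FDX1-OE cells in ES, with differences of 1.92 in DMSO and 1.75 in ES (interaction -0.17, adjusted p = 0.774). VAT1L also differed between genotypes in ES, at 1.48 and 1.51 FPKM in control and 4.72 and 4.54 FPKM in FDX1-OE cells in ES, with an interaction of 0.16 (95% confidence interval -0.08 to 0.40). PTPN6 was lower in FDX1-OE cells in ES too, by a log2 change of -0.81, and XBP1 by -0.24 (adjusted p = 0.0497).

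**Figure D4:**
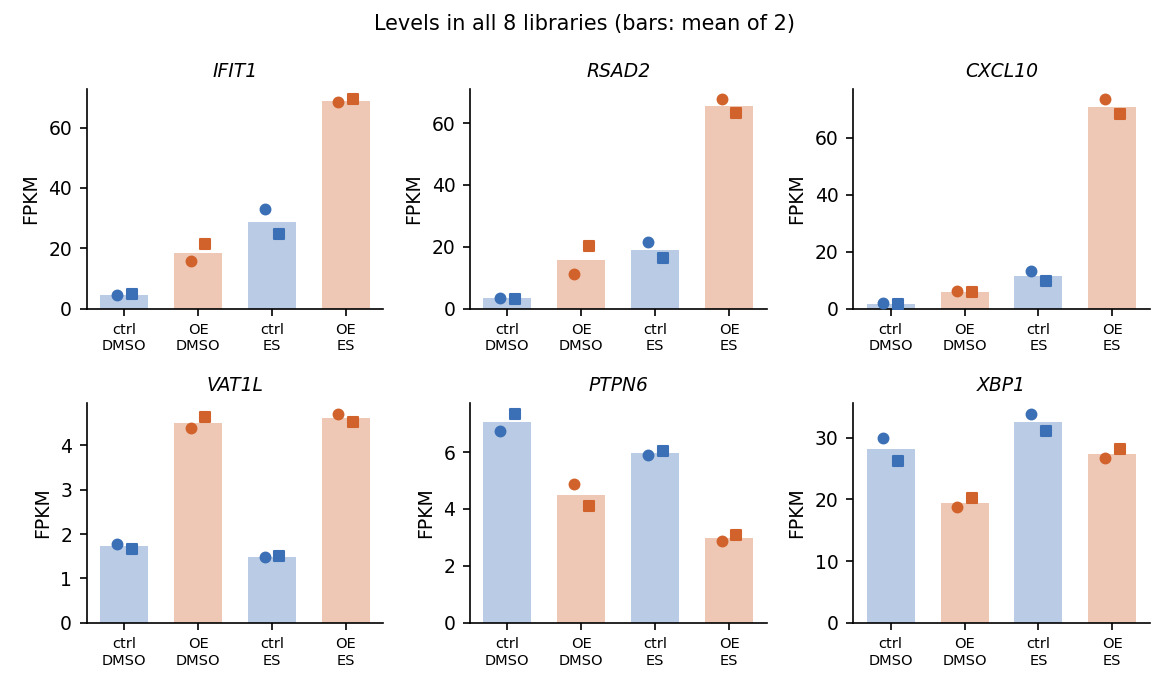
FPKM of 6 genes in all 8 libraries (points, circles for replicate 1 and squares for replicate 2; bars, mean of 2), with control in blue and FDX1-OE in orange. The ES libraries of IFIT1, RSAD2 and CXCL10 lie above the DMSO libraries of the same genotype, while VAT1L is at 1.48 to 1.79 FPKM in all 4 control libraries and 4.39 to 4.72 FPKM in all 4 FDX1-OE libraries.

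Of the 55 genes, 4 had an interaction of genotype and drug in limma, where 266 of all 9360 tested genes did (2.84%, with 2.03% in the direction of a larger value in ES). They were CXCL11, CXCL10, CCL5 and PDZRN3, and in each the FDX1-OE difference was larger in ES. CXCL10 was at 13.3 and 9.76 FPKM in control and 73.4 and 68.4 FPKM in FDX1-OE cells in ES, so its log2 change was 2.53 there against 1.33 in DMSO. Of the 21 called interferon-stimulated genes, the change was larger in ES for 7 and smaller for 14, with no interaction called. Across all 9360 genes, which are not independent replicates, the log2 changes in DMSO and in ES had a Pearson correlation of 0.36 and a Spearman correlation of 0.13, as a description.

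**Figure D5:**
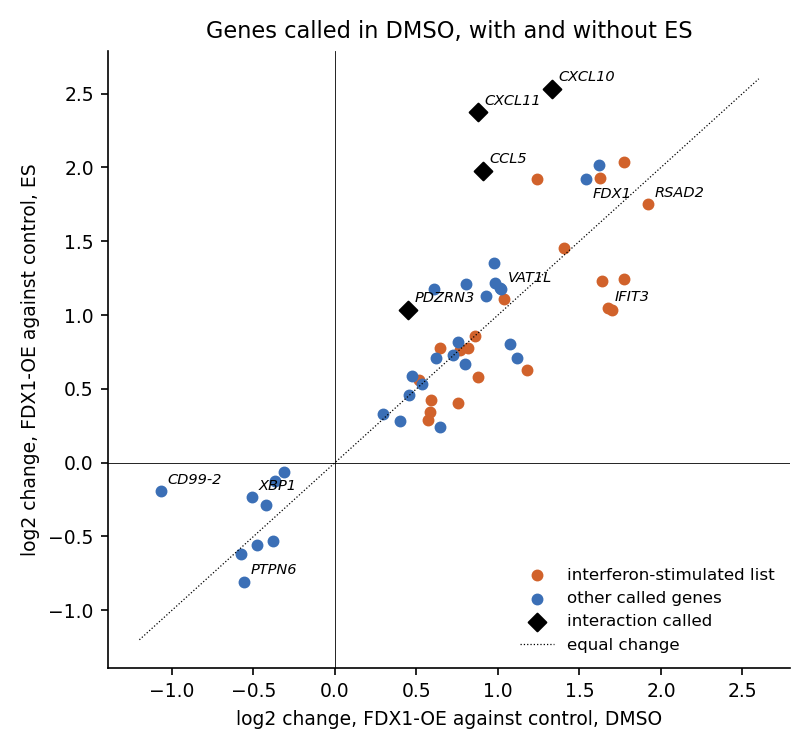
Log2 change of the 55 genes called in DMSO (x axis, FDX1-OE against control in DMSO) against their log2 change in ES (y axis). Orange points are interferon-stimulated genes, blue points other called genes, black diamonds the 4 genes with a called interaction and the dotted line equal change. All 55 keep their sign, and CXCL10, CXCL11 and CCL5 stand well above the line.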

How the data were processed

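RNA-seq of SUDHL-4 cells gave 8 libraries. The deposited values are FPKM made by the authors, one per gene and library. The file headers name no unit, so it was read from the values. Per the submitters' processing notes, HISAT2, HTSeq, R 3.2.0 and build hg19 were used, with roles not given in the sources used here. Values were whole multiples of a gene-length step, which gave whole reads for 100% of genes within 0.02 read, used for depth, the floor of 3 reads and 1 alternative.

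limma 3.58.1 in R 4.3.3 was fitted to log2(FPKM + 1), a scale that understates changes of low genes, with 4 group means over 8 libraries (4 residual and 7.04 prior degrees of freedom), a mean trend, two-sided tests and Benjamini-Hochberg adjustment over 9360 genes. It was tested on simulated data. Intervals for reads cover counting error only. Replicates differed by more than sampling noise. An exact permutation test of 2 against 2 libraries reaches p = 0.33 at best, so none was run.

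Named genes were FDX1, IFIT1, RSAD2 and XBP1, the 15 largest rises and falls among called non-overlapping genes, the 6 most abundant called genes, up to 4 called genes per list and the 3 largest interactions. Further called genes, the uncalled genes and the rows with a copy suffix were chosen after their values were seen. The comparison and all 39 lists were chosen with earlier results of these data known. Alternatives covered the libraries fitted, pseudocount, filter, scaling, test, replicate block and single libraries left out. Mitochondrially encoded genes were not analysed here, and a few listed genes are not reported here.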

Additional observations from a re-analysis of the deposited data

Results flagged for a closer look

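Among the genes called in DMSO, 4 were flagged because the difference between FDX1-OE and control cells was not the same with and without ES, by the interaction term in limma. For CXCL11 the log2 change was 1.496 ± 0.17 (SE) larger in ES (adjusted p = 0.00285), with 3.71 and 3.67 FPKM in control and 23.2 and 23.4 FPKM in FDX1-OE cells in ES. For CXCL10 it was 1.20 ± 0.15 larger (adjusted p = 0.00436). For CCL5 it was 1.07 ± 0.15 larger (adjusted p = 0.00521), with 12.6 and 10.6 FPKM in control and 46.2 and 50.7 FPKM in FDX1-OE cells in ES. For PDZRN3 it was 0.58 ± 0.10 larger (adjusted p = 0.0138), with 5.81 and 5.90 FPKM in control and 13.3 and 12.8 FPKM in FDX1-OE cells in ES. All 4 genes were higher in both FDX1-OE libraries than in both control libraries in each setting. The pseudocount bears on such values where groups start from different low levels, as for CXCL11 at 0.642 and 1.09 FPKM in the DMSO controls.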

How the results depend on the processing

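No called gene changed sign under any alternative run, and FDX1 stayed called in all 13, with a log2 change of 1.44 to 1.64. The number of calls was less stable. With no filter on low values 2 genes were higher (FDX1 and VAT1L), 0 lower and 0 interferon-stimulated genes higher, over 15597 genes and with the prior degrees of freedom down from 7.04 to 1.7. A filter of 0.1 FPKM, chosen after seeing the data, gave 35 higher and 7 lower. With a mean of at least 5 FPKM, 21 genes were higher and 12 of them interferon-stimulated, from fewer genes tested. That mean includes the FDX1-OE libraries. With limma voom on the recovered reads 70 genes were higher and 11 lower (the cause was not tested). Leaving out each replicate in turn gave 16 to 57 higher, 1 to 5 lower and 7 to 23 interferon-stimulated genes, with the lone library of a group assumed to vary like those of the other groups. RLE scaling raised the interaction count from 266 to 423 genes. With the replicate block 46 genes were higher and 11 lower, TRIM21 and TRIM22 lost their calls, and the interaction count was 413. The deviations of same-numbered libraries correlated between -0.15 and 0.20 over the pairs of groups, so the numbers were not taken to pair the samples. The median of the interferon-stimulated list lay between 0.63 and 1.25. With 2 libraries per group, the median 95% half-width of a log2 change was 0.16.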

Other observations

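Some of the 15 largest changes that missed the threshold are given here, singled out after their values were seen. The 2 falls among them were RASA4, with a log2 change of -1.09 (limma adjusted p = 0.253), and GPR89A, with -0.69 (adjusted p = 0.476), whose changes in ES were 0.33 and 1.00. The largest rise was that of ASMTL-2 at 1.41 (adjusted p = 0.852), with 10 and 885 reads in the DMSO controls and 783 and 645 reads in the FDX1-OE libraries. PPP2R3B-2, a row of the same kind, had a log2 change of 0.88 (adjusted p = 0.743), with 43 and 323 reads against 445 and 295 reads. SLX1B, which has a near-identical copy, had a log2 change of 0.99 (adjusted p = 0.609). UBE2L6, the conjugating enzyme for ISG15, had a log2 change of 0.80 (adjusted p = 0.0688), TNFSF10, the death ligand TRAIL, of 0.75 (adjusted p = 0.0537), APOL6 of 0.57 (adjusted p = 0.055), IL4I1 of 0.55 (adjusted p = 0.232) and SPRR2D of 0.54 (adjusted p = 0.0588). In ES these last 5 changes were 1.02, 2.04, 0.64, 1.28 and 1.62.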
